A study of Zea mays with 6 samples.

Results

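Transcripts of 6 maize (Zea mays) genes that cleave sucrose and supply ADP-glucose were measured by RNA sequencing in endosperm of the floury3 (fl3) mutant and of wild type (WT). The genes were picked by identifier from tables of 39448 genes, and all 6 were present in every table. They are the sucrose synthases sh1 (GRMZM2G089713) and sus1 (GRMZM2G152908), the ADP-glucose pyrophosphorylase subunits sh2 (GRMZM2G429899), bt2 (GRMZM2G068506) and Agpsemzm (GRMZM2G106213), and the ADP-glucose importer bt1 (GRMZM2G144081). Both genotypes were grown in a field in summer, and endosperm, the kernel tissue that stores starch and protein, was harvested 10 days after pollination. There were 3 fl3 and 3 WT libraries, independent biological replicates according to the design text. The labels name each sample only by genotype. No label used here gives the inbred background, the dose of the fl3 allele or how many ears or kernels went into each sample. The floury3 mutation gives soft, opaque kernels, and the gene encodes a plant-specific zinc-binding protein of the PLATZ family.

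Sucrose is the form in which carbon reaches the kernel. Sucrose synthase splits it into fructose and UDP-glucose, whose glucose unit is passed on as glucose 1-phosphate. ADP-glucose pyrophosphorylase (AGPase in the plots), built of large and small subunits, then makes ADP-glucose, the substrate of the starch synthases. In cereal endosperm most of this enzyme lies in the cytosol, so a carrier in the amyloplast membrane has to import the product. Maize kernels that lack sh1, sh2, bt2 or bt1 are shrunken or brittle, because starch filling fails.

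Levels are in FPKM, fragments scaled by gene length and library total, as the authors deposited them, so different genes can be compared. They summed to between 465741 and 480602 per library, and sequencing depth is unknown. The 17272 genes whose mean reached 1 FPKM were tested with limma on log2(FPKM + 1). Fold changes given as log2 are fl3 minus WT on that scale. "Rose" and "fell" are used where the p-value adjusted over all tested genes was under 0.05. In the fit 7519 genes rose and 4107 fell in fl3, and the median log2 fold change of all tested genes was 0.14. Median-of-ratios scaling moved that median to -0.02 and the calls to 5659 up and 5952 down. The fl3 transcript itself (GRMZM2G006585) had 3214, 3084 and 3176 FPKM in fl3 libraries and 2100.0, 2427 and 2253 FPKM in WT libraries (log2 fold change 0.48, limma adjusted p = 0.00146). Quantile normalization gave 0.93 and median-of-ratios scaling 0.30, called in both. Its transcript thus rose in the mutant, and a loss of transcript cannot serve as a check of the labels. Of 26 listed zein genes, which mark starchy endosperm, 23 were tested and 22 fell. Their summed level was 11918 to 16942 FPKM in fl3 and 33387 to 41995 FPKM in WT. None of 9 listed genes of green tissue reached a group mean above 0.287 FPKM.

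Of the 6 genes, 5 fell in fl3 and 1, sus1, rose. Across all tested genes 23.8% fell and 43.5% rose, 67.3% being called in either direction. The 2 genotypes did not overlap for any of the 6. They did not overlap for 71.7% of all tested genes, with fl3 lower for 25.9% and higher for 45.8%. Together the 6 genes made up 0.476% ± 0.0325 of the FPKM sum in fl3 and 0.804% ± 0.0292 in WT (SD, n = 3). For each gene alone the exact two-sided permutation test over libraries gave p = 0.1, the smallest that 3 against 3 allows, so the calls rest on the limma fit. In these bulk samples fewer cells of a type and less RNA per cell cannot be told apart.

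**Figure D1:**
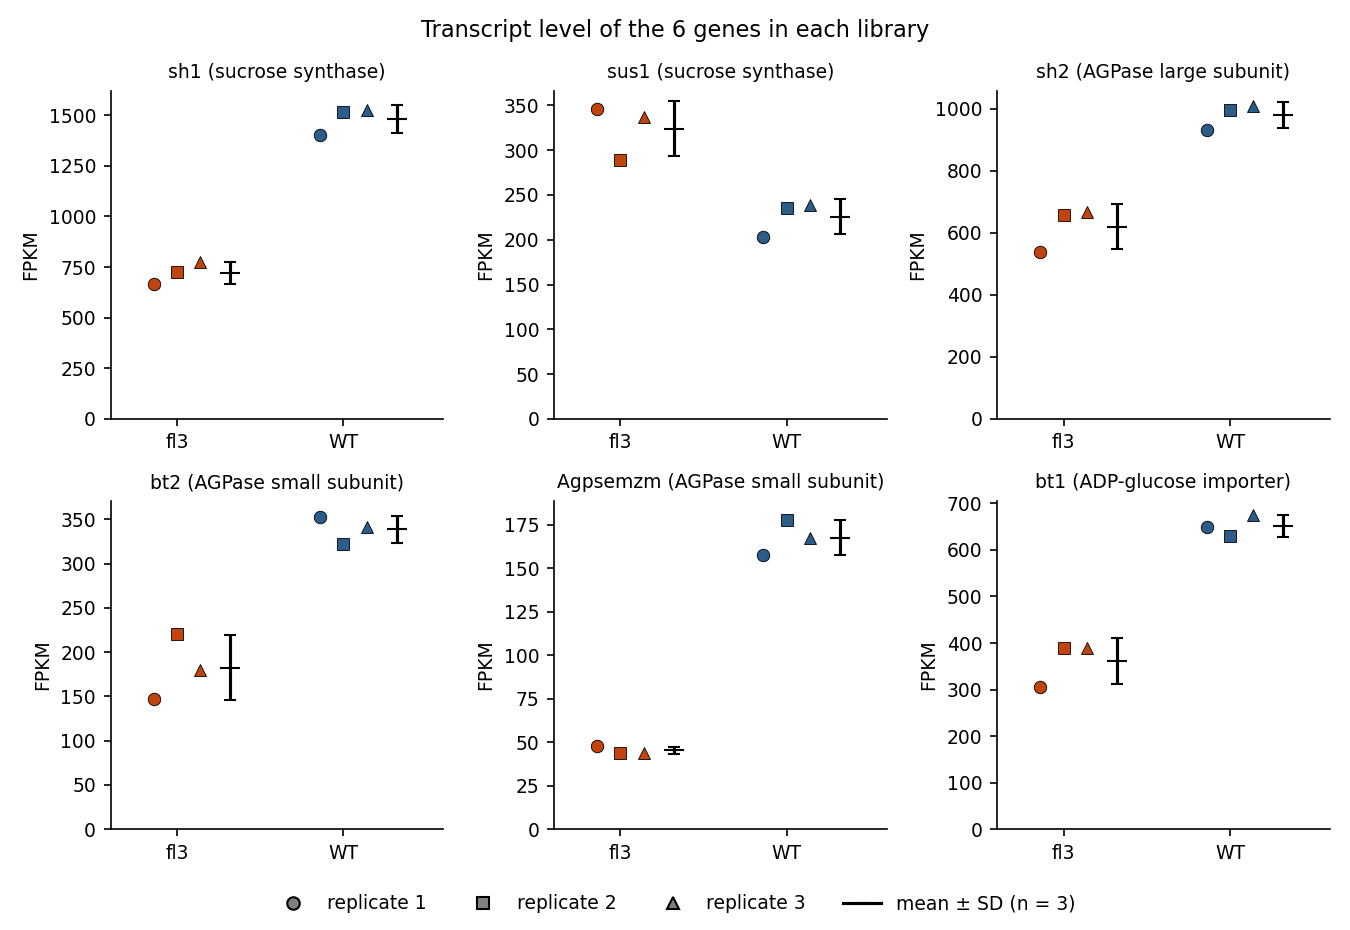
FPKM (vertical axes, starting at 0) of the 6 genes in each fl3 and WT library, with mean and SD beside the points (n = 3). In all but the sus1 panel the 3 fl3 libraries lie below the 3 WT libraries, and for sus1 they lie above, at 289 to 346 FPKM against 203 to 238 FPKM.

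The sucrose synthases moved in opposite directions. The gene sh1, shrunken1, encodes the main sucrose synthase of the developing endosperm. It had 667, 725 and 774 FPKM in fl3 and 1400.0, 1517 and 1526 FPKM in WT. Every fl3 library held less than every WT library, and sh1 was the highest of the 6 genes in both genotypes. Means were 722 ± 53.3 FPKM in fl3 and 1481 ± 70.2 FPKM in WT (SD, n = 3), 2.05-fold lower in fl3. The log2 fold change was -1.04 (95% interval -1.22 to -0.85, limma adjusted p = 1.01e-05). By mean level sh1 was the 45th highest gene in fl3 and the 22nd highest in WT.

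The gene sus1 encodes a second sucrose synthase isoform, found in many organs of the plant. It had 346, 289 and 337 FPKM in fl3 and 203, 236 and 238 FPKM in WT. The lowest fl3 library, replicate 2, still lay above the highest WT library. Means were 324 ± 30.7 FPKM in fl3 and 226 ± 19.6 FPKM in WT, 1.43-fold higher in fl3 (log2 fold change 0.52, 95% interval 0.31 to 0.72, limma adjusted p = 0.00105). The rise is modest among all genes, since 25.9% of tested genes had a higher log2 fold change. It kept its call at 0.33 under median-of-ratios scaling, which moved the value by over 1.5 times (limma adjusted p = 0.0122, the highest of the 16 alternatives, which began at 0.000744).

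The share of sus1 in the pair was higher in every fl3 library than in every WT library. It made up 34.1%, 28.5% and 30.3% of the summed sh1 and sus1 FPKM in fl3, and 12.7%, 13.5% and 13.5% in WT. The sum itself was 1046 ± 56.4 FPKM in fl3 and 1707 ± 89.8 FPKM in WT (SD, n = 3). The ratio of sh1 to sus1 was 2.24 ± 0.292 in fl3 and 6.55 ± 0.269 in WT, a log2 difference of -1.55. The 2 genotypes did not overlap in this ratio. Multiplying a library by one factor leaves a ratio of such high levels nearly as it is, but quantile normalization does not, and there the log2 fold changes were -0.77 for sh1 and 0.51 for sus1. It is 1 of 5 ratios compared (exact permutation p = 0.1 and 0.125 after Benjamini-Hochberg adjustment over the 5, where the smallest possible p is 0.1). Another sucrose synthase gene, sus2 (GRMZM2G318780), was low in both, at 4.64 ± 0.484 FPKM in fl3 and 4.24 ± 0.642 FPKM in WT, and did not pass (limma adjusted p = 0.397). The sucrose synthases are related genes, and the sources used here do not say how reads that fit several genes were counted.

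The large subunit of ADP-glucose pyrophosphorylase in endosperm is encoded by sh2, shrunken2. It had 538, 657 and 666 FPKM in fl3 and 931, 997 and 1008 FPKM in WT. All fl3 libraries were below all WT libraries, with fl3 replicate 1 the lowest. Means were 620.1 ± 71.5 FPKM in fl3 and 979 ± 41.5 FPKM in WT (SD, n = 3), 1.58-fold lower in fl3. The log2 fold change of -0.66 (95% interval -0.88 to -0.45, limma adjusted p = 0.000303) was the smallest fall of the 5 genes that fell.

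Its partner in the cytosolic enzyme is the small subunit encoded by bt2, brittle2. This gene had 147, 219.9 and 180.1 FPKM in fl3 and 353, 322 and 341 FPKM in WT. The genotypes did not overlap, but the fl3 libraries were spread widely, with a coefficient of variation of 20.1% in fl3 and 4.59% in WT. Means were 182 ± 36.6 FPKM in fl3 and 339 ± 15.5 FPKM in WT (SD, n = 3). The log2 fold change was -0.91 (95% interval -1.20 to -0.61, limma adjusted p = 0.000296).

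Agpsemzm encodes a further small subunit, first described from the maize embryo and targeted to plastids. It fell most of the 6, with 47.9, 44.0 and 44.0 FPKM in fl3 and 158, 178 and 167 FPKM in WT. The fl3 libraries lay close together and far below WT. Means were 45.3 ± 2.24 FPKM in fl3 and 168 ± 10.2 FPKM in WT (SD, n = 3), a 3.71-fold difference. The log2 fold change was -1.87 (95% interval -2.01 to -1.72, limma adjusted p = 1.58e-07), and 1.20% of tested genes had a lower one. By mean level the gene ranked 1980th in fl3 and 394th in WT.

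Within the small subunit pair, Agpsemzm made up 24.6%, 16.7% and 19.6% of the summed bt2 and Agpsemzm FPKM in fl3, and 30.9%, 35.6% and 32.9% in WT. The highest fl3 share was below the lowest WT share. The ratio of bt2 to Agpsemzm was 3.99 ± 0.944 in fl3 and 2.02 ± 0.213 in WT, without overlap (log2 difference 0.96, exact permutation p = 0.1 and 0.125 adjusted over the 5 ratios). How reads that fit several genes were counted is unknown, which limits these shares and this ratio.

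The large subunit was also set against both small subunits, as a description with no test. The ratio of sh2 to the sum of bt2 and Agpsemzm was 2.76, 2.49 and 2.97 in fl3 and 1.82, 1.99 and 1.98 in WT. All fl3 libraries exceeded all WT libraries. Against bt2 alone the ratio of sh2 was 3.43 ± 0.395 in fl3 and 2.89 ± 0.232 in WT (SD, n = 3), and here the genotypes overlapped (log2 difference 0.25, exact permutation p = 0.2, also after adjustment). With 3 libraries against 3 the smallest possible p is 0.1, so this test cannot decide on a shift between the 2 subunits of the cytosolic enzyme.

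**Figure D2:**
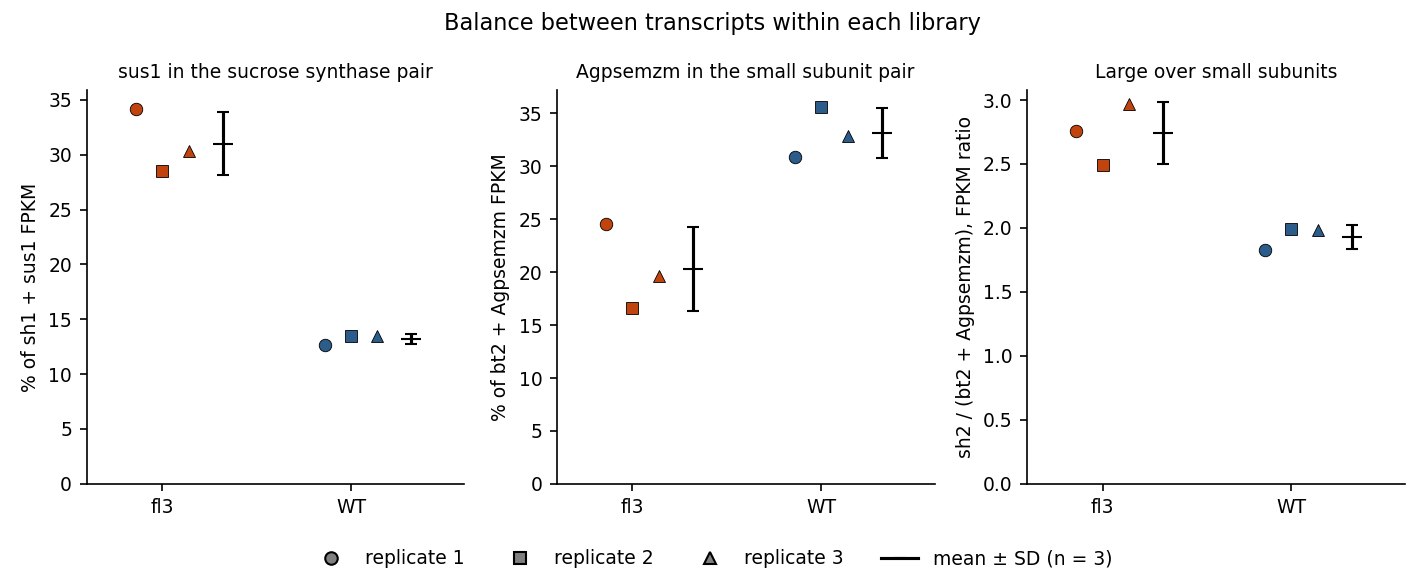
Share of sus1 in the sucrose synthase pair (left, percent of FPKM), share of Agpsemzm in the small subunit pair (middle, percent of FPKM) and ratio of sh2 to the summed small subunits (right), in each fl3 and WT library, with mean and SD (n = 3). The 2 genotypes do not overlap in any panel, and sus1 averages 31.0% in fl3 against 13.2% in WT.

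The ADP-glucose carrier of the amyloplast envelope is encoded by bt1, brittle1. It had 305, 390.3 and 389 FPKM in fl3 and 649, 629 and 676 FPKM in WT. The genotypes did not overlap, and fl3 replicate 1 was again the lowest. Means were 362 ± 49.1 FPKM in fl3 and 651 ± 23.5 FPKM in WT (SD, n = 3), with a log2 fold change of -0.86 (95% interval -1.09 to -0.63, limma adjusted p = 9.82e-05). The ratio of bt1 to sh2 was 0.583 ± 0.0136 in fl3 and 0.667 ± 0.0330 in WT, and that of sh1 to sh2 was 1.17 ± 0.0690 in fl3 and 1.51 ± 0.00915 in WT. Neither ratio overlapped between genotypes (exact permutation p = 0.1 and 0.125 adjusted for each), and both were lower in every fl3 library than in every WT library.

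In fl3 the order of mean levels was sh1, sh2, bt1, sus1, bt2 and Agpsemzm. In WT it was sh1, sh2, bt1, bt2, sus1 and Agpsemzm, so sus1 and bt2 changed places. The fl3 libraries of bt1 (305 to 390.3 FPKM) and sus1 (289 to 346 FPKM) overlapped, and these neighbours did not differ beyond their spread. No other neighbours in either order overlapped in range, although sh1 and sh2 in fl3 came within a few FPKM, at a lowest sh1 of 667 and a highest sh2 of 666.

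**Figure D3:**
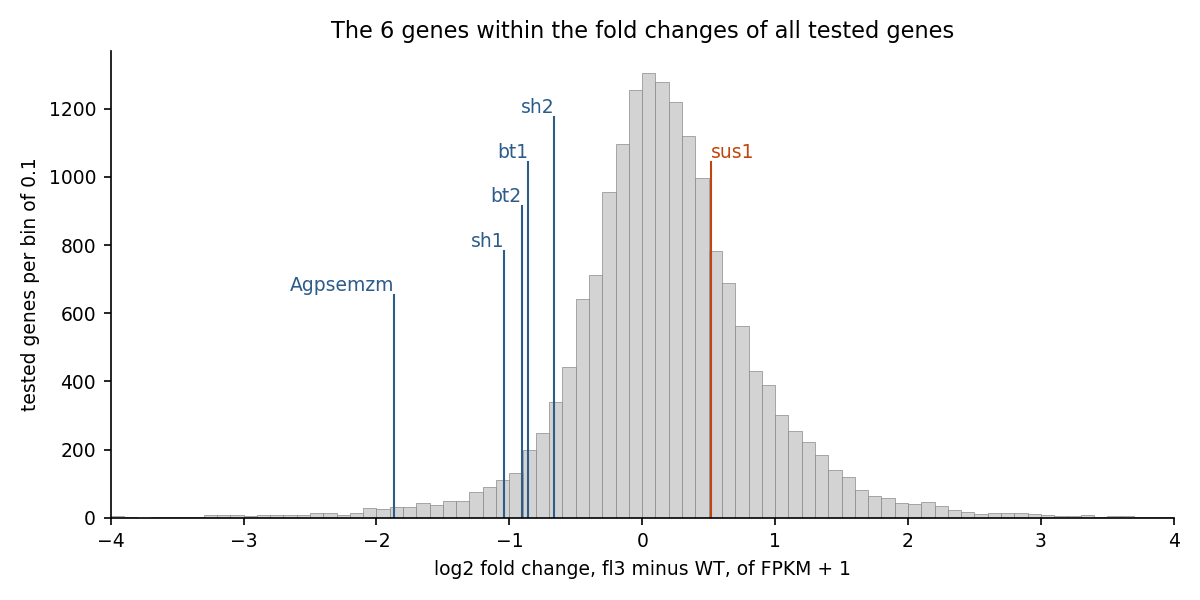
Number of tested genes (vertical axis) by log2 fold change, fl3 minus WT, of FPKM + 1 in bins of 0.1, with lines at the 6 genes; 33 genes beyond 4 in size are not drawn. Agpsemzm (-1.87) lies far out on the falling side, sh1, bt2, bt1 and sh2 lie between -1.04 and -0.66, and sus1 (0.52) lies on the shoulder of the main mass of genes.

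The spread within a genotype was shared by several of the genes. In fl3, replicate 1 was the lowest library for sh1, sh2, bt2 and bt1, at 92.4%, 86.7%, 80.6% and 84.3% of the fl3 mean, and it also held the lowest zein sum, 80.4% of the fl3 mean. In WT, replicate 1 was lowest for sh1, sh2, sus1 and Agpsemzm, at 94.5%, 95.1%, 90.0% and 94.0% of the WT mean, and for the zein sum, at 85.9%. Without fl3 replicate 1 the log2 fold changes were -0.98 for sh1, -0.56 for sh2, -0.76 for bt2 and -0.74 for bt1, each still called.

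Markers of the basal transfer layer, the cells at the base of the endosperm that take up sugars from the mother plant, varied between libraries. The 11 listed markers, all of them tested, summed to 2746, 4191 and 2164 FPKM in fl3 and to 2842, 2470 and 1957 FPKM in WT, with 3 of the 11 risen and 1 fallen. In each genotype the library with the highest marker sum (fl3 replicate 2, WT replicate 1) held the most bt2 and the least sus1. In fl3 replicate 2, bt2 stood at 121% and sus1 at 89.2% of the fl3 mean, and in WT replicate 1 they stood at 104% and 90.0% of the WT mean. The other libraries did not follow that order for bt2, since replicate 3, with the lowest marker sum of each genotype (71.3% of the mean in fl3, 80.8% in WT), held more bt2 (98.8% and 100.8%) than fl3 replicate 1 (80.6%) or WT replicate 2 (95.1%). In fl3, sus1 was likewise not highest where the marker sum was lowest. In WT the order of sus1 was the reverse of that of the marker sum. There sus1 stood at 90.0%, 104% and 106% in replicates 1, 2 and 3, and the marker sum at 117%, 102% and 80.8%. Without fl3 replicate 2 the log2 fold change was 0.60 for sus1 and -1.05 for bt2. Without WT replicate 1 it was 0.44 and -0.88, and all of these were called. Markers of other regions moved as well. Of 6 listed genes of the embryo-surrounding region 5 were tested and all 5 rose, their sum being 472 to 612 FPKM in fl3 and 142 to 179 FPKM in WT. Of 10 listed embryo genes 5 were tested and 3 rose, with sums of 233 to 265 FPKM in fl3 and 159.6 to 172 FPKM in WT. For all these marker counts, the shares over all tested genes were 43.5% risen and 23.8% fallen. The part of these markers in the changes of the 6 genes was not tested.

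**Figure D4:**
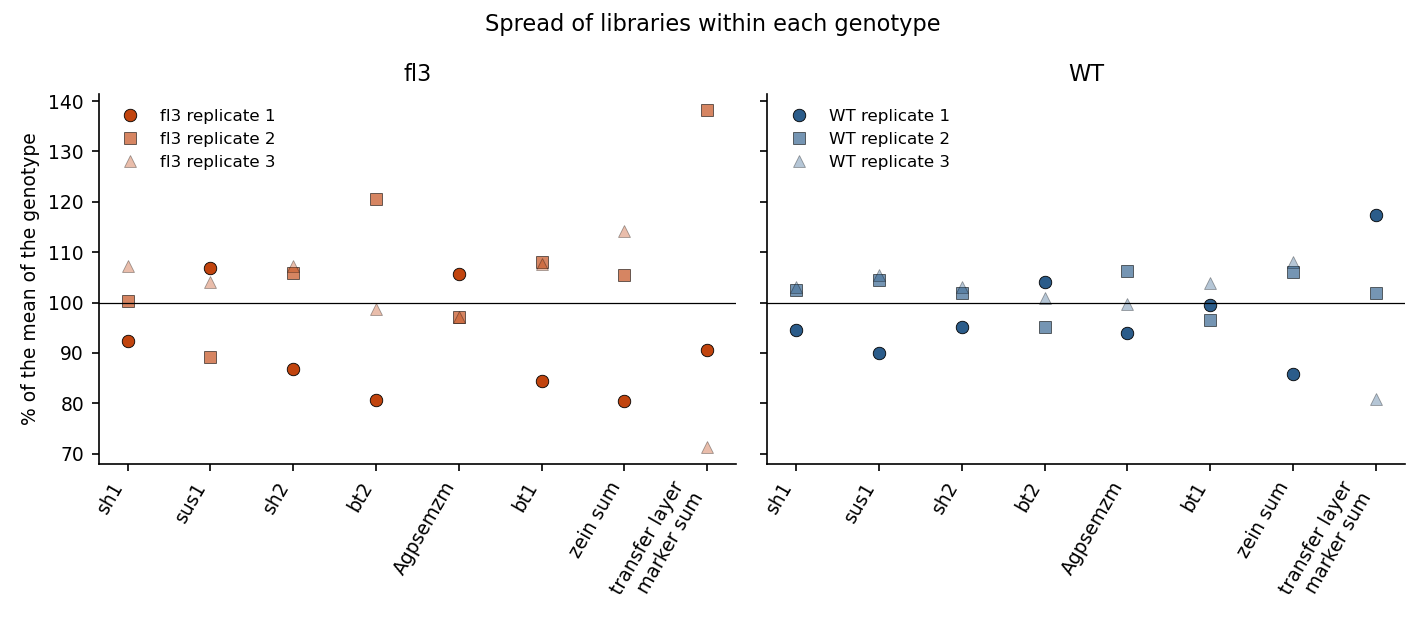
Each library's level as a percent of its genotype's mean (vertical axis; horizontal line at 100), for the 6 genes, the zein sum and the sum of basal transfer layer markers, fl3 left and WT right. Replicate 1 of fl3 is lowest for sh1, sh2, bt2, bt1 and the zein sum, and fl3 replicate 2 stands out for bt2 (121%) and the transfer layer sum (138%).

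Among other genes that handle sucrose and hexoses, 3 rose and 1 fell. The list held 15 genes, of which 13 were tested and 9 of those did not pass. Its median log2 fold change was 0.11, where the median of all genes was 0.14 and 43.5% of tested genes rose and 23.8% fell. The cell-wall invertase incw1 (GRMZM2G139300), which splits sucrose outside the cell, rose to 7.61 ± 0.248 FPKM in fl3, against 2.09 ± 0.410 FPKM in WT (SD, n = 3; limma adjusted p = 5.56e-06). The soluble invertase ivr2 (GRMZM2G089836) rose to 2.05 ± 0.297 FPKM in fl3, against 0.485 ± 0.120 FPKM in WT. Both stayed far below sh1 and sus1. The fructokinase frk2 (GRMZM2G051677), of the enzymes that phosphorylate the fructose released by sucrose synthase, had 198, 143 and 171 FPKM in fl3 and 103, 113 and 103 FPKM in WT (log2 fold change 0.67, limma adjusted p = 0.00066). The invertase mn1 (GRMZM2G119689), a transfer layer gene whose loss gives miniature kernels, had 75.3, 158 and 57.7 FPKM in fl3 and 88.0, 95.3 and 59.8 FPKM in WT, with full overlap (limma adjusted p = 0.705). The sucrose transporter sut2 (GRMZM2G145107) fell, at 13.2 ± 0.0639 FPKM in fl3 and 15.4 ± 0.874 FPKM in WT. This was the only called fall of the list, and it did not pass without WT replicate 2 (limma adjusted p = 0.0584, with 0.000562 the lowest of its alternatives). Under median-of-ratios scaling 3 genes of the list rose and 4 fell, and the log2 fold change of sut2 was -0.38 in place of -0.21.

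Of 4 other genes named for ADP-glucose or adenylate metabolism, 2 rose and 2 fell, where 43.5% of all tested genes rose and 23.8% fell. GLG1 (GRMZM2G163437), another ADP-glucose pyrophosphorylase gene that the reference table also lists as agpsl1, had 6.61, 6.68 and 5.78 FPKM in fl3 and 2.29, 2.42 and 2.20 FPKM in WT (log2 fold change 1.15, or 0.64 with 5 FPKM added in place of 1; limma adjusted p = 6.94e-06). Its share of the summed bt2, Agpsemzm and GLG1 FPKM was 2.76% ± 0.459 in fl3 and 0.453% ± 0.0257 in WT (SD, n = 3), so it stayed a minor transcript. The unknown counting of reads that fit several genes limits this share too. AGPLS3 (GRMZM2G144002), named as a large subunit gene, had 6.97 ± 0.928 FPKM in fl3 and 5.52 ± 0.408 FPKM in WT, and its rise (limma adjusted p = 0.0304) depended on single libraries and on the scaling. It did not pass without fl3 replicate 1, WT replicate 1 or WT replicate 3 (limma adjusted p = 0.0902, 0.0641 and 0.101), nor without the filter or under any of the 3 scalings, and over all alternatives its adjusted p ran from 0.0216 to 0.524. A gene listed as AGP2 (GRMZM2G027955), a symbol the reference table also gives to Agpsemzm, fell to 20.9 ± 1.05 FPKM in fl3, against 32.5 ± 0.501 FPKM in WT. The gene listed as adk1 (GRMZM2G178192) fell to 8.28 ± 0.667 FPKM in fl3, against 11.2 ± 1.32 FPKM in WT.

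Downstream of ADP-glucose, 13 genes that build and trim starch polymers were listed and tested, with 4 rising, 5 falling and 4 not passing. Their median log2 fold change was -0.12. Over all tested genes the median was 0.14, and 43.5% rose and 23.8% fell. Under median-of-ratios scaling 4 rose and 8 fell. The granule-bound starch synthase wx1 (GRMZM2G024993), which makes amylose, fell with a log2 fold change of -1.87 and a 95% interval of -2.12 to -1.61, close to Agpsemzm. The starch phosphorylase pho1 (GRMZM2G074158) had 228, 278 and 249 FPKM in fl3 and 428, 504 and 459 FPKM in WT (log2 fold change -0.88, limma adjusted p = 4.53e-05). That change was of the size of those of bt2 and bt1. The debranching enzyme genes zpu1 (GRMZM2G158043) and iso3 (GRMZM2G150796) had log2 fold changes of 1.30 and 1.17 from low levels, or 0.77 and 0.72 with 5 FPKM added in place of 1. The falls of the abundant genes ss1, du1 and ae1 lay between -0.45 and -0.29, all smaller in size than those of the 5 falling genes of the supply steps. Under median-of-ratios scaling they were -0.49 for ss1, -0.48 for du1 and -0.64 for ae1, where sh2 had -0.85. Not all abundant genes of the list fell. The gene model GRMZM2G088753 of sbe1 had 251 FPKM in fl3 and 273 FPKM in WT and did not pass (limma adjusted p = 0.146). Nor did sugary2 (GRMZM2G348551), at 90.4 and 93.7 FPKM (limma adjusted p = 0.513). Both were called as falling under median-of-ratios scaling, at -0.31 and -0.24. The symbols sbe1 and phi1 each belong to 2 gene models. How reads were divided between these is unknown, so their single values are uncertain.

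**Figure D5:**
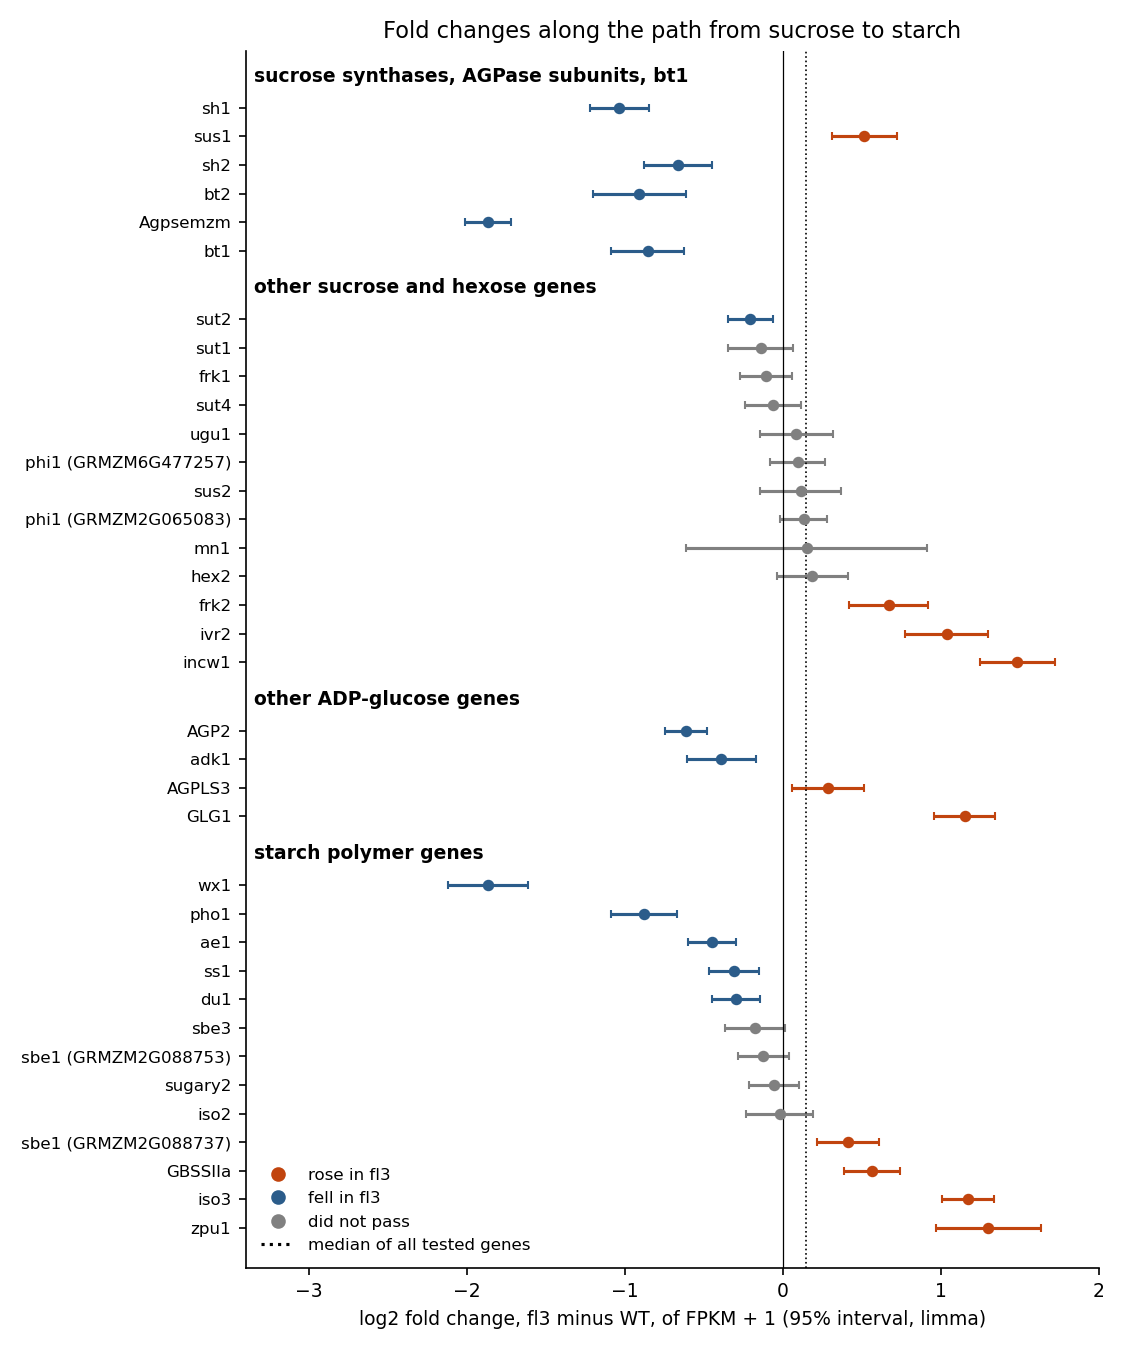
Log2 fold change, fl3 minus WT, of FPKM + 1 (horizontal axis, with limma's 95% interval) for the 6 genes and the tested genes of 3 pathway lists; colours give the call and the dotted line the median of all tested genes (0.14). Among the 13 tested sucrose and hexose genes 9 did not pass, and Agpsemzm and wx1 fell deepest, each at -1.87.

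Transcripts of 2 activators of endosperm storage genes are given beside these values. The bZIP factor gene o2, opaque2 (GRMZM2G015534), had 25.9, 35.6 and 36.0 FPKM in fl3 and 63.2, 68.8 and 69.9 FPKM in WT, and in both genotypes replicate 1 was the lowest library, as for sh1 and sh2. The gene pbf1 (GRMZM2G146283), for the prolamin-box binding factor, had 31.1, 38.4 and 35.5 FPKM in fl3 and 68.9, 86.9 and 82.8 FPKM in WT. Their log2 fold changes were -1.04 and -1.16. Their part in the levels of the 6 genes was not tested.

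Profiles over the 6 libraries were compared by the root-mean-square difference of centred log2(FPKM + 1) values, as a description. The profiles of bt2 and bt1 were close, at 0.0959, and bt1 was the nearest named gene to bt2. sh1 lay at 0.122 from bt1, and sh2 at 0.107 from bt1. Many other tested genes lay closer, since bt1 ranked 14th in nearness to bt2, 163rd to sh1 and 203rd to sh2. In nearness to Agpsemzm it ranked 897th. Agpsemzm stood at 0.427 or more from each of the others, and sus1 at 0.612 or more. The nearest named genes were por1 (GRMZM2G155021; 0.0240) and pOMT1 (GRMZM2G383088; 0.0551) for sh1, and MSRA4 (GRMZM2G052666; 0.0471) and GBP12 (GRMZM2G082318; 0.0510) for sus1. For sh2 they were phb3 (GRMZM2G410710; 0.0600) and bHLH159 (GRMZM2G004356; 0.0753), and for bt1 BSD6 (GRMZM2G167207; 0.0691) and bZip37 (GRMZM5G858197; 0.0711). TIP4-2 (GRMZM2G108273; 0.1003) followed bt1 for bt2, and EMB1417 (GRMZM2G000361; 0.0529) and cko (GRMZM2G146644; 0.0868) were nearest to Agpsemzm. The measure depends on the 1 FPKM added. EMB1417 had 0.0245 FPKM in fl3 and 2.93 FPKM in WT, so its ratio of levels was unlike that of Agpsemzm, and TIP4-2, at 1.07 FPKM in fl3 and 3.20 FPKM in WT, was also low. Most of these genes were expressed at far lower levels than the genes they are set beside, por1 for example at 44.9 FPKM in fl3 and 91.8 FPKM in WT.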

How the data were processed

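RNA of 3 fl3 and 3 WT endosperm samples was sequenced on an Illumina HiSeq instrument, per the labels' protocols. The authors deposited one table of FPKM values per library. The tools FastQC, TopHat and Bowtie2 and the build B73 RefGen_v3 come from the submitters' processing notes. What computed the FPKM values, with which annotation and strand setting, and how multiply mapped reads were counted is not given in the sources used here. Steps of whole reads were looked for in low values, and at most 11.8% of low genes shared 1 ratio between libraries, within 1%. This does not settle whether low values follow whole reads. Read counts were not recovered, and no count test or counting interval was made.

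Genes whose mean reached 1 FPKM were fitted as log2(FPKM + 1) with limma 3.58.1 (R 4.3.3; eBayes with a mean-variance trend, genotype as the only term), and two-sided p-values were adjusted by Benjamini-Hochberg over all 17272 genes. The fit was also run on simulated data with independent normal noise and few changed genes, unlike the many called here. That run is no check of the calls in these data. Ratios between genes used FPKM + 1 and exact permutation tests, two-sided, with SciPy 1.17.1, and shares used FPKM as deposited. Symbols came from a RefSeq gene table of Zm-B73-REFERENCE-NAM-5.0, which matched 18906 identifiers, 2577 with an informative name. That build differs from the one of the files, so no coordinates are given. The members and lists were chosen with earlier results of these data known. Genes named are the 6 members, up to 4 per list by size of change (further list genes were named after their values were seen), the regulators, and the 2 nearest named profiles per member. A gene listed as TMT was left out of the sugar list because the symbol is shared by unlike enzymes. Alternatives covered pseudocount, filter, scaling, variance model, library weights, replicate block and leaving out each library. Plots were drawn with matplotlib 3.10.9.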

Additional observations from a re-analysis of the deposited data

How the results depend on the processing

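Each of the 6 genes kept its direction and its call under all 16 alternatives. The log2 fold change ranged from -1.22 to -0.77 for sh1, 0.33 to 0.60 for sus1, -0.85 to -0.49 for sh2, -1.09 to -0.76 for bt2, -2.05 to -1.78 for Agpsemzm and -1.04 to -0.73 for bt1. The 5 ratios kept their direction under the pseudocounts and with each library left out. The replicate block cannot move their mean differences in this balanced design, so it is no check of them. With genes of a mean of at least 5 FPKM, fewer genes were tested, and 7675 were called, of which 4771 rose, and 1 gene of the sugar list and 1 of the ADP-glucose list rose. The sugar list had 4 falling genes under median-of-ratios scaling, 3 under upper-quartile scaling and 4 under quantile normalization, and 0 to 1 when a library was left out. The ADP-glucose list had 1 rising gene without the filter and under each of the 3 scalings, and 1 to 2 when a library was left out. The starch list had 8 falling genes under median-of-ratios scaling. The cause was not tested. Leaving out a library gave 10706 to 11176 called genes. Deviations of same-numbered libraries correlated at -0.15, 0.07 and -0.02, so no common pairing by replicate number was seen. At 3 libraries per genotype such correlations cannot settle whether samples were paired. With the replicate block 11137 genes were called, against 11626 without it, and no call of the 6 genes changed.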
